A study of Mus musculus with 12 samples.

Results

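The skin genes described here encode proteases that work mostly outside cells, on the cell surface or in lysosomes, together with the protein families that block them. Members were all genes whose symbols begin with Mmp, Adam, Adamts, Timp, Serpin, Cts, Klk, Prss, Tmprss, Cst, Spink, Wfdc or Casp. A total of 76 of the 7902 genes in the deposited tables matched, and rows of the same gene were added together. By family, 39 were classed as proteases and 24 as protease inhibitors. The remaining 13 matched by symbol but belong to neither class. They are the 5 non-catalytic Adamtsl proteins, the 4 Cstf factors of messenger RNA cleavage (unrelated to cystatins), Casp8ap2, and the serpins Serpinh1, Serpinf1 and Serpinb5, which are not known to act mainly by blocking proteases. The name extracellular does not cover every member, since caspases and most of the Serpinb proteins work inside cells.

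Proteases in skin remodel the dermal matrix, shed growth factors from cell surfaces, degrade proteins in lysosomes and cut the links between cornified cells so that they can be shed. Each class has its own inhibitors: TIMPs block metalloproteinases, cystatins block cysteine cathepsins, most serpins trap serine proteases by a conformational change, and Spink proteins block kallikreins and related enzymes. Serpins are suicide inhibitors, so each molecule is used once.

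Messenger RNA was measured by bulk RNA sequencing in 12 libraries of mouse skin. Ctrl libraries came from control skin. Model libraries came from skin aged with D-galactose, a sugar that promotes glycation, and UVA/B light. M+NSPCC1 libraries came from this model with the grape seed extract NSPCC1. Each group had 4 libraries, numbered 01 to 04, and values of single libraries are given in that order. No label gives dose, duration, strain, age, sex or body site, and none says that the samples were separate animals, so p-values measure only the spread between these samples. In bulk skin, fewer cells of a type and less RNA per cell cannot be told apart.

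The summed counts ran from 9717338 to 10952623 per library, and the members took 1.17% to 1.31% of them in Ctrl, 0.643% to 1.07% in Model and 0.744% to 0.855% in M+NSPCC1 libraries. The tables hold 7869 of 21900 annotated protein-coding genes and 76 of the 317 that the symbol rule matches, and most genes in them differ from Ctrl. Members outside them, among them Mmp2, Mmp3, Mmp13, Mmp14, Timp1, Timp3, Ctsb, Ctsk, Ctsl, Klk7 and Spink5, were not analysed here. Of 8 epidermal markers 3 were in the tables, and their summed level was 6659 to 8916 CPM (counts scaled to library size) in Ctrl, 4549.5 to 8559 in Model and 4759.6 to 7469 in M+NSPCC1. Within that list the basal keratin Krt5 had 2641 ± 275 CPM in Ctrl and 4351 ± 1153 in the Model group, and Krt10, a keratin of the layers above, 4996 ± 883 and 1417 ± 633 (n = 4 each, SD). The remaining marker, Flg, had 251.6 ± 51.7 CPM in Ctrl and 350.4 ± 70.0 in Model (n = 4 each, SD), and unlike Krt10 was higher in Model. The library Model 03 lay apart from the other Model libraries: it was the highest of the 4 for 35 of the 41 members that fell in Model skin.

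Promoter letters were examined for the members whose values are described first below, because cathepsins and the Serpinb genes of chromosome 1 share families but not directions. Ctse, the only cathepsin that rose in Model skin, had no promoter available, so the cathepsins searched all fell. The 250 bases before the start site, from RefSeq on GRCm38.p6, were available for 53 of the 76 members and were searched on both strands. TCACGTGA is the palindrome of the CLEAR element of lysosomal genes. It occurred in 2 of the 53 members, both among the 5 cathepsins searched, and in 0.907% of all 27025 genes searched. It lay 99 bases before the start of Ctsd (chr7:142387828-142388077, minus strand) and 13 bases before the second start site of Ctsa (chr2:164833523-164833772, plus strand). Capitals mark TCACGTGA and, in Ctsa, also CTTTGA, the letters bound by LEF/TCF factors, found in 6 of 53 members and 15.837% of genes.
Ctsd: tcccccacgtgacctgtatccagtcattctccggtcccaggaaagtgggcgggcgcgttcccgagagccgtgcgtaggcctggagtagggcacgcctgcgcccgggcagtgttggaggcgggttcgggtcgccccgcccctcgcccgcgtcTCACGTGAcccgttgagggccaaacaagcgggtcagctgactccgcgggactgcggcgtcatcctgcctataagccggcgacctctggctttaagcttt
Ctsa: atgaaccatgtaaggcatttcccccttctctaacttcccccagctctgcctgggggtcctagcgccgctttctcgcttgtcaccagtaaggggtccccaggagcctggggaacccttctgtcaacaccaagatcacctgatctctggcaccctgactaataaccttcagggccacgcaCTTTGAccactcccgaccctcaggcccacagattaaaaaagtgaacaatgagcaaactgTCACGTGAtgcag

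Among 5 Serpinb genes of chromosome 1 with a promoter in the table, 4 hold TGANTCA, the letters of an AP-1 site, against 6 of 53 members and 7.819% of all genes. The 4 are printed because they lie in 1 gene cluster and went in both directions in Model skin, Serpinb5 and Serpinb11 up and Serpinb7 and Serpinb10 down. The letters lie 140 bases before the start of Serpinb5 (chr1:106860925-106861174), 45 before Serpinb7 (chr1:107422439-107422688), 54 before Serpinb10 (chr1:107528753-107529002), and 181 and 76 before Serpinb11 (chr1:107362064-107362313), all on the plus strand. Capitals mark TGANTCA and, in Serpinb7, also CTTTGA. The middle base is G in Serpinb7 and A or T in Serpinb5, Serpinb10 and Serpinb11. The promoters of Serpinb6a, Serpinb6d, Serpinb6e and Serpinb9 on chromosome 13 hold no TGANTCA, and the share in the chromosome 1 cluster was not tested. A match is a description of the letters and not of a bound site.
Serpinb5: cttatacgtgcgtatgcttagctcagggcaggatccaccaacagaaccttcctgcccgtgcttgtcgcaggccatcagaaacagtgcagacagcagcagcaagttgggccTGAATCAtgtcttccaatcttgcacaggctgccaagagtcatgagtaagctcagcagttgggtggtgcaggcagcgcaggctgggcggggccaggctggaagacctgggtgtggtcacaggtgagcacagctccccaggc
Serpinb11: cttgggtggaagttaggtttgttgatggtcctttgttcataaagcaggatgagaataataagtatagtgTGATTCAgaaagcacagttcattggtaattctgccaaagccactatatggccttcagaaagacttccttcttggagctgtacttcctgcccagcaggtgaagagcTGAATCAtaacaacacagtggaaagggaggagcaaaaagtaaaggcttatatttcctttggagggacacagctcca
Serpinb7: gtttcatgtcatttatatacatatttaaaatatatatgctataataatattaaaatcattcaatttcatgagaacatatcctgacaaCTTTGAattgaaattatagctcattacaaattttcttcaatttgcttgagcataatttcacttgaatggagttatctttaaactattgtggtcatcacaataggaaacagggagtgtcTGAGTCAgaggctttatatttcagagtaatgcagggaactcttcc
Serpinb10: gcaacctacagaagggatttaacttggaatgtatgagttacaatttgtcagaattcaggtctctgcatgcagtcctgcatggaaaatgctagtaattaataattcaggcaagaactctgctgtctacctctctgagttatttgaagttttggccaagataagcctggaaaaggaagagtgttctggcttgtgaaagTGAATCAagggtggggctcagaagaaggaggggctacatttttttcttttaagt

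The comparison of Model with Ctrl asked how the ageing treatment altered proteases and their inhibitors. The inhibitors' summed expression was lower by more than that of the proteases, and the ratio of proteases to inhibitors was higher. Summed over the 24 inhibitors, expression per transcript length (FPKM) was 2787, 2703, 2737 and 2661 in the Ctrl libraries and 1194, 858.1, 1871 and 982.5 in the Model libraries, which do not overlap. Summed over the 39 proteases it was 1579, 1319, 1449 and 1314 in Ctrl and 1171, 1024, 1530 and 1154 in Model, where Model 03 lay within the Ctrl range. The ratio of protease to inhibitor FPKM was 0.519 ± 0.0365 in Ctrl and 1.04 ± 0.177 in the Model group (n = 4 each, SD), without overlap (0.488 to 0.567 against 0.818 to 1.19). These sums cover only the members in the tables, and 1 gene led each. Ctsd made up 56.1% of protease FPKM in Ctrl and Cst3 made up 50.5% of inhibitor FPKM. Ctsd is an aspartic protease and Cst3 an inhibitor of cysteine cathepsins, so this ratio does not set enzymes against their own inhibitors.

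Markers of skeletal muscle, endothelium and adipocytes were also lower in Model libraries. All 12 listed skeletal muscle markers were in the tables and fell (median log2 fold change -3.24), and their summed level was 69534 to 73569.7 CPM in Ctrl, 4037 to 12920.1 in Model and 8978 to 13632 in M+NSPCC1. The 5 of 6 endothelial markers in the tables fell, with sums of 678.5 to 783 CPM in Ctrl, 125.5 to 341 in Model and 179.8 to 218 in M+NSPCC1. Both adipocyte markers in the tables (of 6 listed) fell, from sums of 59.2 to 79.9 CPM in Ctrl to 7.79 to 21.5 in Model, with 12.2 to 16.6 in M+NSPCC1. Neutrophil markers went the other way (3 of 6 in the tables, 2 higher and 0 lower). Their sums were 9.84 to 58.6 CPM in Ctrl, 44.8 to 226.5 in Model and 12.75 to 263.1 in M+NSPCC1, with overlap. Of the mast cell markers 1 was higher and 1 lower in Model, and of the T cell markers 1 was higher and 3 lower. None of these markers was at 0 in all Ctrl libraries, and their part in the class sums was not tested.

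**Figure D1:**
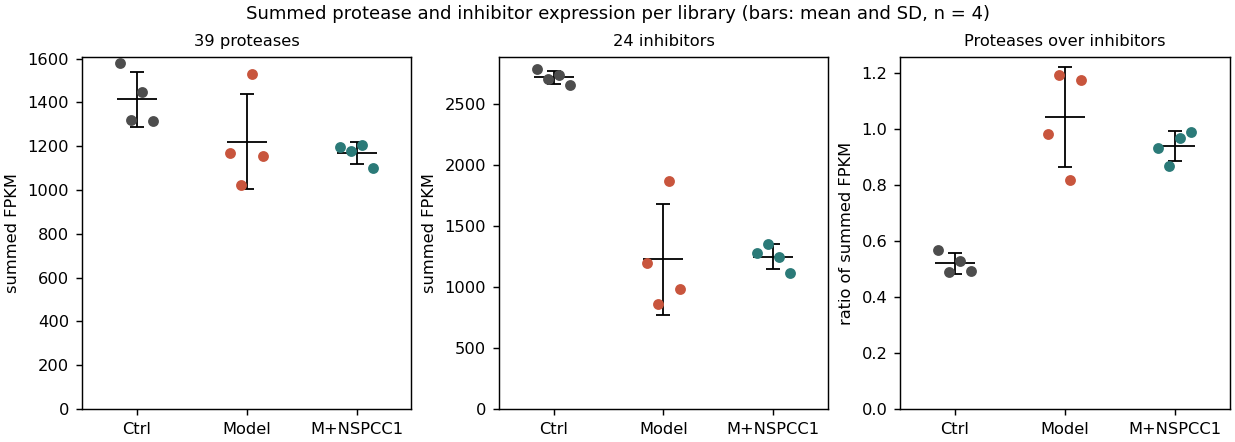
Summed FPKM of the 39 proteases (left), summed FPKM of the 24 inhibitors (middle) and their ratio (right) in each of the 12 libraries, one point per library, with the mean and SD of each group. The inhibitor sums were 2661 or more in every Ctrl library and 1871 or less in the other 8, and the ratio was 0.567 at most in Ctrl and at least 0.818 elsewhere.

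Enzymes set against inhibitors of their class did not all give a higher ratio. The metalloproteinases with a catalytic site (18 Mmp, Adam and Adamts genes) had a summed FPKM of 0.381 ± 0.0167 times that of Timp2 and Timp4 in Ctrl and 0.649 ± 0.0565 times in the Model group (n = 4 each, SD). Timp1 and Timp3 were not analysed, so the ratio does not cover all inhibitors of these enzymes. The Ctrl ratios ran from 0.358 to 0.393 and the Model ratios from 0.565 to 0.683, and thus did not overlap. In Model 03, Mmp11 alone gave 58.94 of the summed 133.8 FPKM, against 4.28 to 6.31 FPKM in the other Model libraries. The ratio of Model 03, 0.683, therefore rests largely on 1 gene, and ratios without Mmp11 were not taken. The cysteine cathepsins Ctsc, Ctsh, Ctso and Ctss stood at 0.304 ± 0.0540 times the FPKM of Cst3 in Ctrl and 0.328 ± 0.0191 times in Model (n = 4 each, SD), and these ranges overlapped (0.253 to 0.366 and 0.301 to 0.347). The mean summed FPKM of the kallikreins was lower in Model and that of the Spink genes higher, although Klk14 and Klk15 themselves rose. Klk5, Klk14 and Klk15 summed to 42.6 ± 5.27 FPKM in Ctrl and 30.3 ± 7.30 in Model, with overlap. Spink6, Spink8 and Spink12 summed to 0.1 ± 0.2 and 18.2 ± 12.8 FPKM (n = 4 each, SD). No ratio was taken for them, since most Ctrl libraries had no Spink count. These pairings were chosen after the values had been seen and carry no test.

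Gene by gene, 13 proteases rose, 20 fell and 4 did not pass among the 37 tested (median log2 fold change -0.57). Among the 23 tested inhibitors 8 rose, 13 fell and 2 did not pass (median -1.27). Calls were made with the quasi-likelihood test of edgeR, where the p adjusted by Benjamini and Hochberg was under 0.05. Across all 7638 genes tested 90.5% passed, 49.1% higher and 41.4% lower, with a median of 0.25, so the share of members that passed, 67 of 73, is near the background. In CPM, the Model and Ctrl libraries did not overlap for 27 proteases and 21 inhibitors, against 83.1% of all genes. Both classes fell more often than they rose under each of 3 scalings, which moved the median of all genes from 0.08 to 0.43.

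**Figure D2:**
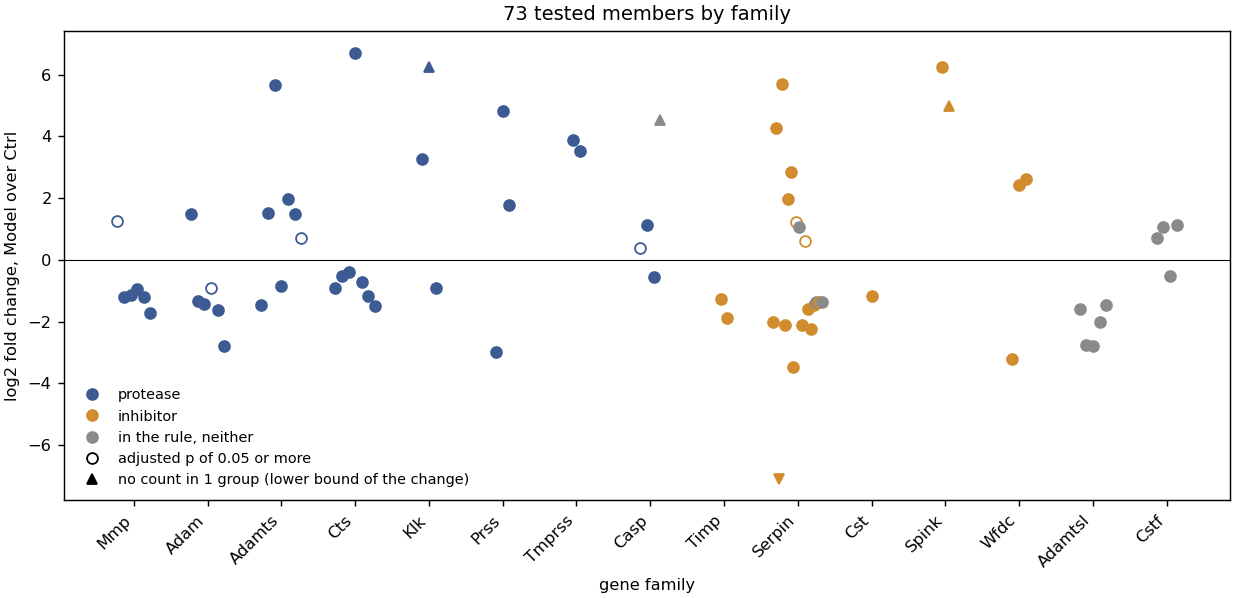
Log2 fold change of Model over Ctrl (vertical axis) for the 73 tested members by gene family, filled where the adjusted p was under 0.05, with triangles at the lower bound where a group had no count. Timp, Adamtsl and the passing Mmp genes lie below 0, the Tmprss and Spink genes above it, and Serpin genes on both sides.

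The cathepsins divided 1 against 6. Ctse, an aspartic protease of epithelial and immune cells (chromosome 1, 131638314 to 131675507), had 0.885, 1.44, 2.04 and 0.540 CPM in the Ctrl libraries and 123, 129.7, 133 and 137 CPM in the Model libraries. All 4 Model libraries lay far above Ctrl and close together. The log2 change was 6.72 (SE 0.30; adjusted p = 1.93e-08, edgeR with Benjamini-Hochberg adjustment), the largest of the members with counts in both groups. Ctsd, the main aspartic protease of lysosomes, moved the other way, from 2555, 2348, 2487 and 2325 CPM in Ctrl to 1772, 1565, 2248 and 1736 CPM in Model. In CPM the groups do not overlap, but the change was small (log2 fold change -0.41; SE 0.11; adjusted p = 0.00405, edgeR). In FPKM, which allows genes to be compared, Ctsd stood at 791 ± 32.9 and Ctse at 0.353 ± 0.183 in Ctrl, and at 672 ± 92.04 and 42.7 ± 2.09 in Model (n = 4 each, SD). By this measure Ctsd in Model 03 (796.1 FPKM) lay within the Ctrl range of 763.0 to 835.2.

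The 4 cysteine cathepsins and the carboxypeptidase Ctsa fell. Ctss, which trims the invariant chain in antigen-presenting cells and stays active outside lysosomes, had 549, 356, 465 and 311 CPM in Ctrl and 122, 77.6, 296 and 96.2 CPM in Model libraries. In CPM Model 03 lay just under the lowest Ctrl library, and in FPKM just above it (161.3 against 158.8). The other 3 Model libraries lay far below Ctrl. The change in log2 was -1.51 (SE 0.37; adjusted p = 0.00258, edgeR) and was -2.09 without Model 03. Log2 fold changes were -0.51 for Ctsc, which activates granule serine proteases, -0.72 for the aminopeptidase Ctsh, -0.90 for Ctsa and -1.16 for Ctso, and the groups overlapped for Ctsh and Ctsa.

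Macrophage markers, which belong to cells rich in Ctss and Ctsd, were lower in the same libraries. All 8 listed markers were in the tables, none was at 0 in all Ctrl libraries, and their summed level was 4815 to 6686 CPM in Ctrl, 952.6 to 2603 in Model (2603 in Model 03) and 1018 to 1920 in M+NSPCC1. Their part in the cathepsin changes was not tested.

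Cst3, or cystatin C, the secreted inhibitor of cysteine cathepsins (chromosome 2, 148871722 to 148875512), had 1309, 1285, 1293 and 1153 CPM in Ctrl and 529, 402, 867.0 and 444 CPM in Model libraries. No Model library reached the Ctrl range, and Model 03 was the highest of the 4. This gave a log2 change of -1.17 (SE 0.20; adjusted p = 0.000197, edgeR).

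Metalloproteinases of the Mmp family fell in 5 of 6 cases, and none rose. Mmp9, or gelatinase B, had 30.3, 44.4, 65.7 and 46.6 CPM in Ctrl and 10.3, 5.65, 31.7 and 8.30 CPM in Model libraries. Model 03 overlapped with Ctrl and the other 3 did not. The log2 change was -1.74 (SE 0.50; adjusted p = 0.00603, edgeR), and -2.53 without Model 03. The membrane-type enzymes Mmp15 and Mmp17 fell by 1.19 and 1.15 on the log2 scale, Mmp23 by 0.95 and Mmp27 by 1.19. Mmp11, or stromelysin 3, an enzyme of stromal cells in remodelling tissue, did not pass. It had 31.3, 31.4, 23.9 and 21.4 CPM in Ctrl, and 20.1, 14.4 and 20.7 CPM in 3 Model libraries but 205.0 in Model 03. Its log2 fold change of 1.27 (SE 0.73; adjusted p = 0.118) became -0.55 (adjusted p = 0.0331) without Model 03 and 1.63 (adjusted p = 0.0419) without Model 02, by edgeR, so its direction rests on 1 library.

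Their inhibitors fell alongside. Timp2, which blocks metalloproteinases and also takes part in the activation of pro-Mmp2, had 1600.1, 1634, 1804 and 1506 CPM in Ctrl and 609, 425, 1100.4 and 585 CPM in Model libraries. The groups do not overlap, with Model 03 again the highest of its group. On the log2 scale the change was -1.27 (SE 0.24; adjusted p = 0.000391, edgeR), and that of Timp4 was -1.88 (SE 0.30). Fibroblast markers (6 of 9 in the tables, none at 0 in all Ctrl libraries) summed to between 10707 and 13219 CPM in Ctrl, between 3641 and 9109 in Model, with 9109 in Model 03, and between 5203 and 6779 in M+NSPCC1. Their part in the falls of Timp and Mmp genes was not tested.

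Adam and Adamts genes divided. Adam15, Adam19, Adam23 and Adam33 fell by 1.32, 1.44, 1.63 and 2.78 on the log2 scale. Adam12, a sheddase of growth factors such as Hbegf, rose by 1.5, from 16.6, 20.7, 27.1 and 13.1 CPM in Ctrl to 53.9, 38.6, 70.4 and 56.7 CPM in Model libraries, without overlap. Adam22 and Adam23 are counted here as proteases by symbol but lack a catalytic site, and Adam22 did not pass. Of the 7 tested Adamts genes 4 rose: Adamts18 (log2 fold change 5.66), Adamts20 (1.96), Adamts13, which cleaves von Willebrand factor (1.52), and Adamts3, a procollagen N-proteinase (1.48). Adamts10, which binds fibrillin microfibrils, and Adamts2, the procollagen N-proteinase of skin, fell by 1.47 and 0.84. The call of Adamts2 was lost without Ctrl 03, Model 01 or Model 02 (adjusted p = 0.0503 to 0.0606, edgeR), and Adamts4, an aggrecanase, did not pass. Adamts15 was not tested, with no count in Ctrl and 25.9, 19, 0 and 0 CPM in Model libraries.

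Adamts20, whose loss gives belted mice with a gap in pigmentation, was the only one of the 13 members with several transcripts to have transcripts called in opposite directions. The first transcript had 1.73, 2.73, 0.531 and 0.428 CPM in Ctrl and 44.8, 51.9, 29.9 and 67.7 CPM in Model libraries. The third had 15.3, 11.9, 0 and 16.5 CPM in Ctrl and no count in Model. Their log2 fold changes were 5.16 (adjusted p = 2.34e-06) and -9.80 (adjusted p = 0.00503; edgeR on 10171 transcripts with Benjamini-Hochberg adjustment). The value of -9.80 depends on the prior count, since Model is at 0, and the estimate splits reads among transcripts of 1 gene, so their shares are uncertain. Only if this split is right does the gene's sum understate the rise of the first transcript.

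**Figure D3:**
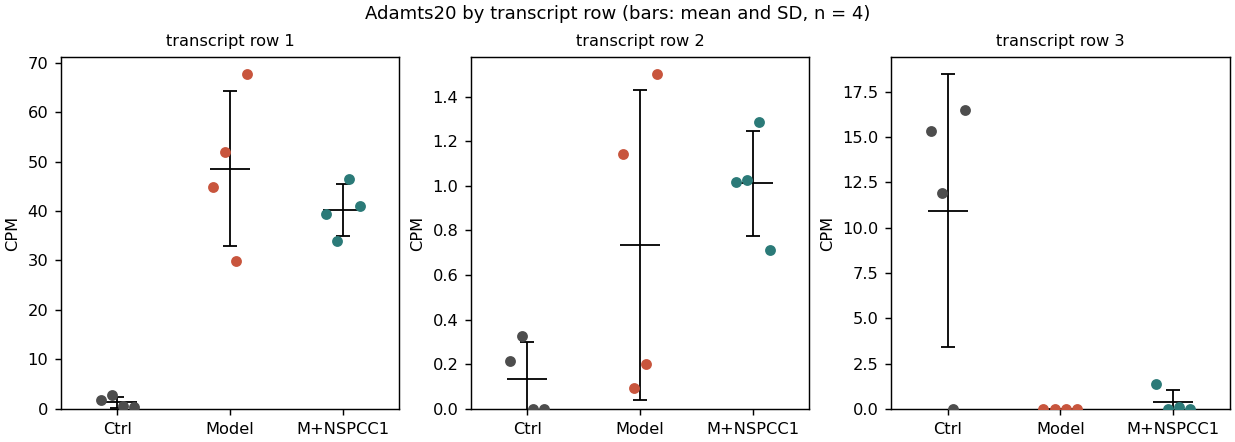
Scaled count (CPM) of the 3 Adamts20 transcripts in every library, one point per library, with the group mean and SD and a vertical scale of its own for each transcript. Transcript 1 was at 2.73 CPM or less in Ctrl and at least 29.9 in Model, while transcript 3 had counts in 3 of 4 Ctrl libraries and none in Model.

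The Adamtsl proteins, which resemble Adamts enzymes without their catalytic part and bind the matrix around fibrillin, all fell: Adamtsl1 by 1.58, Adamtsl2 by 2.77, Adamtsl3 by 2.80, Adamtsl4 by 2.0 and Adamtsl5 by 1.47 on the log2 scale. None of the 5 overlapped between Model and Ctrl. Adamtsl3 reached 6.35 CPM in Model 03, where the remaining 3 Model libraries had 1.297 to 1.42, and without Model 03 its log2 fold change was -3.74.

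Serine proteases of the cell surface and epidermis rose from low levels. Prss53, a secreted polyserase found in the inner root sheath of hair (chromosome 7, 127885444 to 127892965), had 6.97, 9.28, 7.41 and 9.17 CPM in Ctrl and 242, 272, 178 and 248 CPM in Model libraries. All Model libraries lay far above Ctrl (log2 fold change 4.84; SE 0.21; adjusted p = 1.93e-08, edgeR). Its neighbour Prss8, or prostasin, a membrane-anchored activator of epithelial sodium channels (chromosome 7, 127925717 to 127930149), had 28.1, 22.1, 20.8 and 23.96 CPM in Ctrl and 79.0, 78.7, 93.7 and 78.2 CPM in Model libraries. This rise was smaller but without overlap (log2 fold change 1.79; SE 0.14; adjusted p = 5.32e-07, edgeR). The transmembrane proteases Tmprss11e and Tmprss7 rose by 3.88 and 3.52. Of the 5 tested genes of these 2 families, Prss23, a protease of vessels and stroma, fell, by 2.98, and by 3.64 without Model 03. Tmprss6, which was not tested, had 0.432 to 0.859 CPM in Ctrl and 0 to 0.298 in Model libraries, without overlap. Summed over the Prss and Tmprss genes, FPKM was 13.8 ± 1.17 in Ctrl and 107 ± 10.2 in the Model group (n = 4 each, SD).

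Kallikreins, the serine proteases that loosen cornified cells, divided. Klk5, which can activate other kallikreins, had 93.3, 69.4, 86.6 and 86.2 CPM in Ctrl and 42.3, 32.0, 66.9 and 36.0 CPM in Model libraries. In CPM Model 03 lay just below the lowest Ctrl library, and in FPKM just above it (36.76 against 35.13). The log2 change was -0.92 (SE 0.25; adjusted p = 0.00486, edgeR). Klk14 rose by 3.28, from 0.322 CPM or less to between 0.397 and 4.54 CPM. Klk15 had no count in any Ctrl library and 3.69, 6.95, 7.04 and 7.36 CPM in Model, at least 76.6-fold higher (bound from 3 counts over the Ctrl group).

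Spink genes rose as well, at low levels. Spink6, an inhibitor of skin kallikreins, had no count in Ctrl and 4.92, 2.69, 1.39 and 1.31 CPM in Model libraries, at least 31.5-fold higher by the same bound. Spink12 had at most 0.331 CPM in Ctrl, and 3.03, 0.556, 24.3 and 0.932 CPM in Model libraries. Its log2 fold change of 6.26 (SE 1.46; adjusted p = 0.00174, edgeR) was 4.01 without Model 03 and 9.22 without Ctrl 02. Spink8 was not tested, with no count in Ctrl and at most 1.02 CPM in Model. Hair shaft and root sheath markers (14 of 15 in the tables, none at 0 in all Ctrl libraries) summed to between 7.84 and 342 CPM in Ctrl, 46581 and 72362 in Model and 32167 and 57504 in M+NSPCC1. Model 03 was the lowest Model library for those markers and for Prss53, and the highest for Prss8 and Spink12; the markers' part in these rises was not tested.

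Serpins were the largest family, with 5 rising, 11 falling and 2 not passing of 18 tested. On chromosome 1 the Serpinb cluster split. Serpinb5, or maspin, an epithelial serpin that is not an active inhibitor (chromosome 1, 106861175 to 106883348), had 402, 315, 364 and 407 CPM in Ctrl and 863, 846, 666.0 and 776 CPM in Model libraries. Every Model library was above every Ctrl library (log2 fold change 1.08; SE 0.11; adjusted p = 2.94e-06, edgeR). Serpinb11 and Serpinb13, the latter an inhibitor of cysteine cathepsins in keratinocytes, rose by 1.97 and 2.84. Serpinb7, which is expressed in the upper epidermis (chromosome 1, 107422689 to 107452689), fell from 158.0, 132, 109 and 170.3 CPM in Ctrl to 32.0, 18.1, 51.9 and 19.6 CPM in Model libraries. Again the groups do not overlap (log2 fold change -2.23; SE 0.29; adjusted p = 2.74e-05, edgeR). Serpinb10 fell by 2.10, and Serpinb3a did not pass (log2 fold change 1.24; adjusted p = 0.0776, edgeR; under 0.05 with whole-library scaling, with limma on log2(FPKM + 0.1), in a fit of only the 8 libraries and without M+NSPCC1 01).

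The Serpinb genes of chromosome 13, most of them inhibitors of leukocyte proteases inside cells, fell in 4 of 5 cases. Serpinb6a, an inhibitor of cathepsin G (chromosome 13, 33917918 to 34002794), had 1379, 1157, 1222 and 1253 CPM in Ctrl and 271, 221, 446 and 216 CPM in Model libraries. This was a log2 change of -2.12 (SE 0.23; adjusted p = 7.21e-06, edgeR), and all 4 Model libraries lay far below Ctrl. Serpinb1a, which blocks neutrophil elastase, fell by 3.48, Serpinb9, which blocks granzyme B, by 1.48 and Serpinb6e by 1.61, while Serpinb6d did not pass (log2 fold change 0.60). Serpinb6a, Serpinb6d and Serpinb6e are close copies, so the split of reads among them is uncertain.

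Secreted serpins of the Serpina cluster on chromosome 12 also split. Serpina9 rose from 0.553, 0.331, 0.322 and 0.324 CPM in Ctrl to 22.6, 18.9, 16.7 and 23.6 CPM in Model libraries (log2 fold change 5.70; SE 0.25; adjusted p = 1.93e-08, edgeR). Serpina1e, of the alpha-1 antitrypsin family, rose by 4.26, and Serpina12, or vaspin, an adipokine that also blocks a kallikrein, fell by 2.0. Serpina3j had 10.7, 15.1, 3.54 and 9.71 CPM in Ctrl and no count in any Model or M+NSPCC1 library, at least 137-fold and 143-fold lower (bounds from 3 counts over the group). Both Serpina1e and Serpina3j have near-identical relatives, and their counts are uncertain. Serping1, the C1 inhibitor of complement and kinin release, fell from 875, 1018, 1171 and 1028 CPM to 350, 215, 719 and 292 CPM, without overlap (log2 fold change -1.38; SE 0.31; adjusted p = 0.00136, edgeR).

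Serpins without a main inhibitory role included 2 genes of the dermal matrix. Serpinh1, or Hsp47, the chaperone of procollagen, had 1023, 1160, 1511 and 1420 CPM in Ctrl and 502, 361, 665 and 459 CPM in Model libraries. The change in log2 was -1.36 (SE 0.18; adjusted p = 2.89e-05, edgeR) with no overlap, and that of Serpinf1, or pigment epithelium-derived factor, was -1.37 (SE 0.23).

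Whey acidic proteins of the Wfdc family and caspases had few members. Wfdc1 fell by 3.22. Wfdc12 and Wfdc18 rose by 2.44 and 2.61 from low levels; the Wfdc12 call was lost without any one of 5 libraries (adjusted p up to 0.0626, edgeR), and Wfdc18 had 4.29 CPM in Ctrl 03 where the remaining 3 Ctrl libraries had 0.552 or less, with a log2 change of 4.87 without it. Casp2 rose by 1.14, from 60.4, 50.9, 49.0 and 46.7 CPM to 115, 121, 103 and 117 CPM. Casp14, which acts in cornification and not in apoptosis, had 93.8, 74.3, 62.4 and 72.8 CPM in Ctrl and 90.8, 72.9, 133 and 93.7 CPM in Model libraries. These overlapped, and Casp14 did not pass (log2 fold change 0.37; adjusted p = 0.173, edgeR), although it did with whole-library scaling (log2 fold change 0.54; adjusted p = 0.0487) and with limma on log2(FPKM + 1) or log2(FPKM + 0.1) (adjusted p = 0.0471 and 0.0476). The messenger RNA cleavage factors Cstf1, Cstf2 and Cstf3 rose by 0.70, 1.07 and 1.14, and Cstf2t fell by 0.54. Casp8ap2, with counts in 2 of 4 Model libraries and none in Ctrl, passed (adjusted p = 0.0398, edgeR), but lost the call in 9 alternatives.

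**Figure D4:**
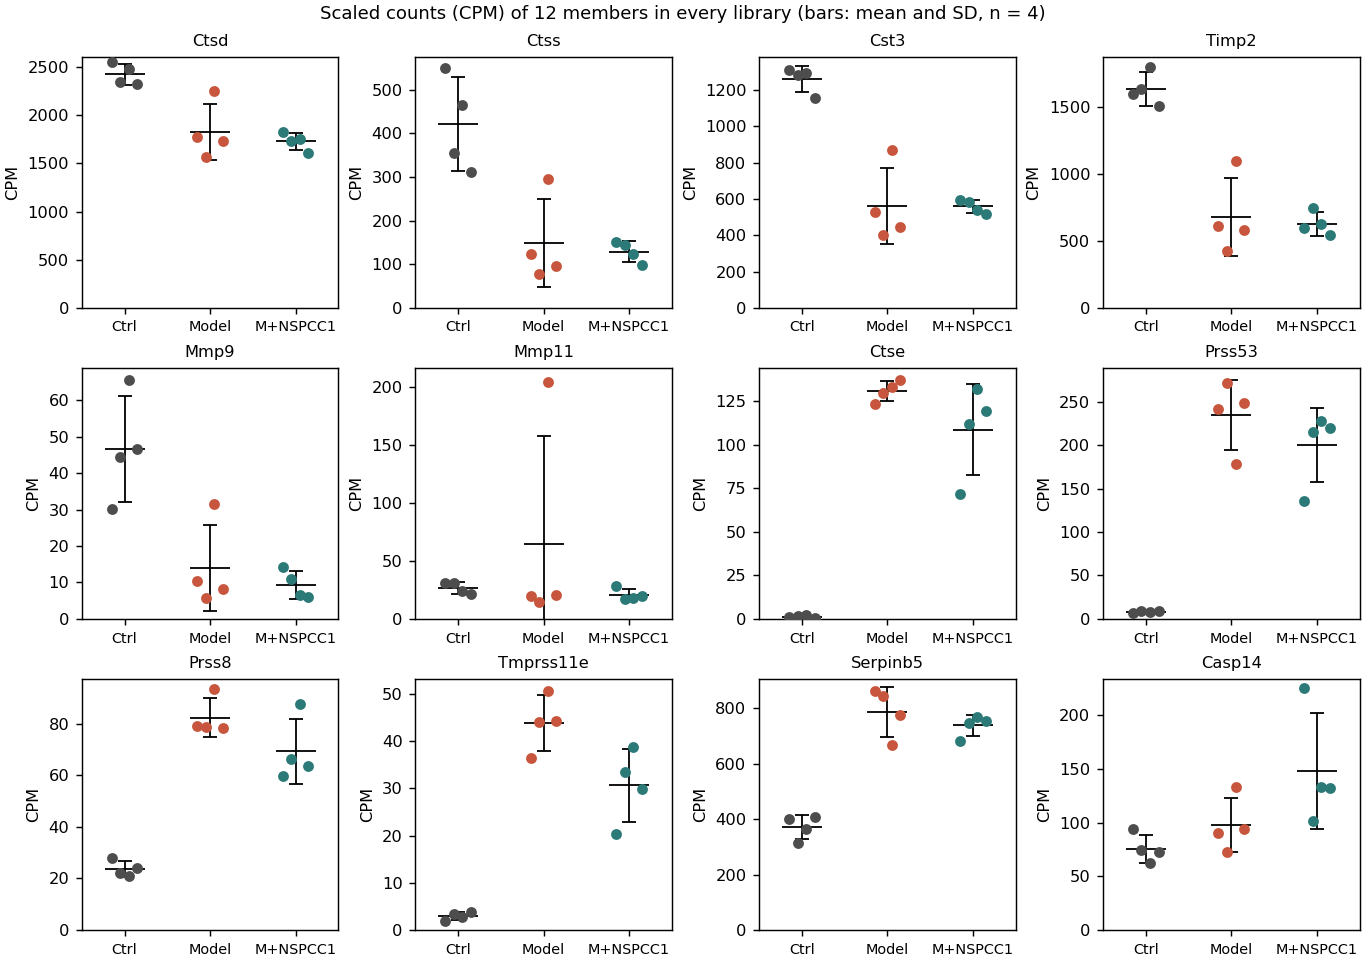
Scaled count (CPM, linear axis from 0) of 12 members in each of the 12 libraries, one point per library, with the group mean and SD. Ctse, Prss53, Prss8, Tmprss11e and Serpinb5 rise from Ctrl to Model, Ctsd, Ctss, Cst3, Timp2 and Mmp9 fall, and in Mmp11 the single library Model 03 stands at 205.0 CPM.

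Related genes that the symbols do not match came from lists of proteases, inhibitors and their targets. Of 13 other proteases in the tables (of 37 listed) 2 rose and 8 fell, with a median log2 fold change of -0.70. The 2 were Corin (5.02) and St14, or matriptase, the membrane protease that works in 1 pathway with Prss8 (61.0 ± 7.08 CPM in Ctrl and 463 ± 96.3 in Model, SD, n = 4 each; log2 fold change 2.92). The urokinase Plau, the tissue activator Plat and Htra3 had log2 fold changes of -0.71, -0.78 and -2.11. Of 13 tested other inhibitors 6 rose and 4 fell, with a median of 1.32, opposite in sign to the -1.27 of the member inhibitors. The summed level of the 14 in the tables (of 28 listed) was 1706 to 1948 CPM in Ctrl and 1588 to 1719.5 in Model libraries, which overlap. The matriptase inhibitors Spint1 and Spint2 had log2 fold changes of 3.08 and 1.32, and the membrane-anchored metalloproteinase inhibitor Reck -1.11. Of 12 substrates and receptors in the tables (of 16 listed) 9 rose, among them the protease-activated receptor F2rl1 (1.41) and Tgfa, which is shed by Adam proteases (2.34). The 3 that fell were the matrix genes Fn1, Eln and Col3a1, whereas the matrix gene Vcan rose (0.59).

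Setting M+NSPCC1 against Model asked what the extract changed. No member passed by edgeR's quasi-likelihood test, where 0.0% of all genes did. The lowest adjusted p of a member was 0.674. At an unadjusted p under 0.05 there were 5 members, 4 proteases and 1 inhibitor of 73, against 6.57% of all genes. DESeq2 called no member and 73 genes in all (0.956%), and limma on log2 FPKM called no member. None of the members had groups without overlap, which 4.19% of all genes had. A 2-fold change either way lay outside the 95% interval for 44 of 73 members (60.3%) and for 77.0% of all genes.

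Intervals narrow enough to exclude a 2-fold change included the abundant members. The log2 fold change of M+NSPCC1 over Model was 0.00 for Cst3 (95% interval -0.44 to 0.43), -0.08 for Ctsd (-0.32 to 0.16), -0.11 for Timp2 (-0.63 to 0.40), -0.27 for Ctse (-0.72 to 0.19), -0.23 for Prss53 (-0.61 to 0.14) and 0.22 for Serpinh1 (-0.17 to 0.60). For Mmp9 the interval ran from -1.67 to 0.52 and for Serpinb1a from -0.30 to 3.35, which leaves a 2-fold fall of Mmp9 and a 2-fold rise of Serpinb1a within the interval. The summed inhibitor FPKM was 1249 ± 102 in M+NSPCC1 and 1226 ± 452 in Model, and the protease to inhibitor ratio 0.939 ± 0.0521 against 1.04 ± 0.177 (n = 4 each, SD). The M+NSPCC1 ratios, 0.869 to 0.988, lay within the Model range.

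**Figure D5:**
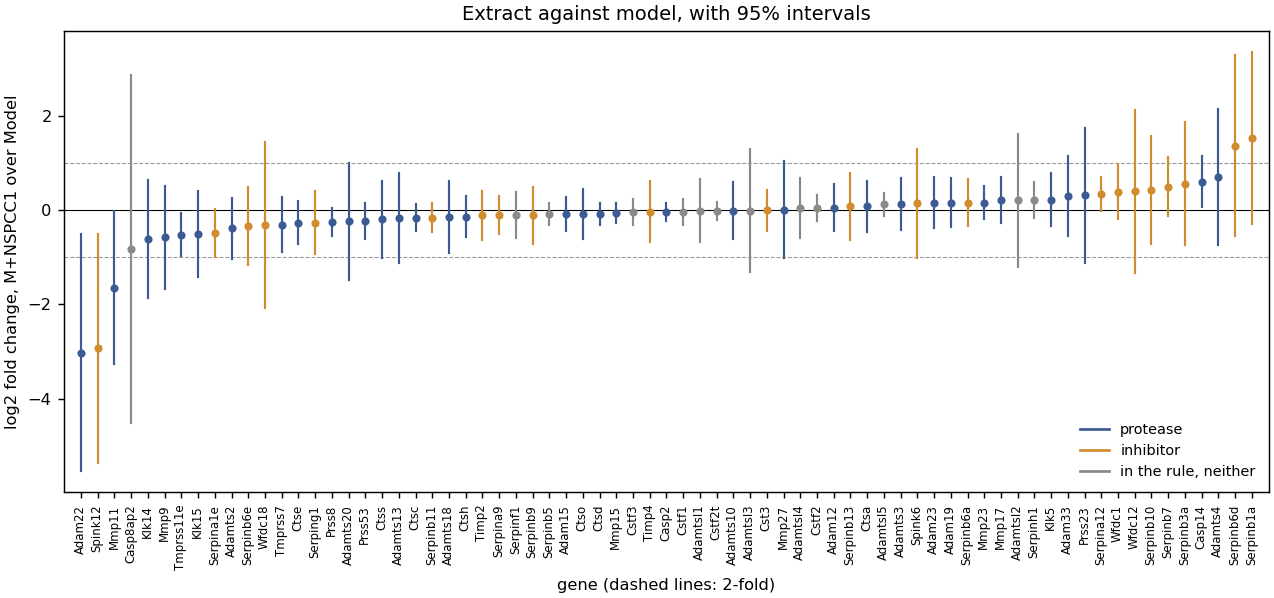
Log2 fold change of M+NSPCC1 over Model with its 95% interval (vertical axis) for 71 members in order of size, coloured by class; Serpina3j, with no count in both groups, and the untested members are among those left out. Most intervals cross 0, and the widest belong to members with few counts such as Casp8ap2, Adam22 and Spink12.

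The 6 members with the smallest p gave values that did not pass. Tmprss11e had 36.4, 44.0, 50.7 and 44.4 CPM in Model and 20.4, 33.6, 38.7 and 29.8 CPM in M+NSPCC1 libraries (log2 fold change -0.52; SE 0.21; adjusted p = 0.684, edgeR). The groups overlapped only between Model 01 and M+NSPCC1 03. Casp14 had 226, 101, 133 and 132 CPM in M+NSPCC1 libraries, against 133 at most in Model, and a log2 change of 0.60 (SE 0.25; adjusted p = 0.684, edgeR). Log2 fold changes were -0.49 for Serpina1e, -3.03 for Adam22, -2.93 for Spink12 and -1.65 for Mmp11. Without Model 03 the last 3 were -2.34, -0.68 and 0.17. Without M+NSPCC1 02 the value for Adam22 was -8.29 (adjusted p = 0.214, edgeR), which depends on the prior count, since the remaining M+NSPCC1 libraries have no count. Adam22 had 4.36, 1.21, 8.24 and 1.58 CPM in Model libraries, 1.85 CPM in M+NSPCC1 02 and no count in the other M+NSPCC1 libraries.

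Compared with Ctrl, M+NSPCC1 skin held 14 proteases that rose, 21 that fell and 2 that did not pass (median log2 fold change -0.67), and 8 inhibitors that rose, 13 that fell and 2 that did not pass (median -1.38). In this comparison 93.2% of all genes passed, 50.1% higher and 43.1% lower, with a median of 0.27. Groups did not overlap in CPM for 33 proteases and 21 inhibitors, against 90.0% of all genes. It shares the Ctrl libraries with the comparison of Model and Ctrl, so the values are given side by side without a measure of likeness. Log2 fold changes over Ctrl were 6.46 in M+NSPCC1 and 6.72 in Model for Ctse, 4.6 and 4.84 for Prss53, 1.55 and 1.79 for Prss8, -1.17 in both for Cst3, -1.38 and -1.27 for Timp2, -1.73 and -2.23 for Serpinb7, -1.15 and -1.36 for Serpinh1, and -2.32 and -1.74 for Mmp9. The ratio of metalloproteinases to Timp2 and Timp4 was 0.577 ± 0.0744 (SD, n = 4), above the highest Ctrl library in all 4.

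Members that passed here and not in Model were Casp14, Serpinb3a and Adam22. Casp14 rose by 0.97 over Ctrl (SE 0.25; adjusted p = 0.00309, edgeR), with all 4 M+NSPCC1 libraries (101 to 226 CPM) above the highest Ctrl library (93.8 CPM). Serpinb3a, an epidermal inhibitor of cysteine proteases, rose by 1.80 (adjusted p = 0.0168, edgeR), with 11.1 CPM in M+NSPCC1 01 and 2.28 to 3.82 in the other 3, and without M+NSPCC1 01 the call was lost (log2 fold change 1.02; adjusted p = 0.0909). Adam22 fell by 3.93 (adjusted p = 0.00746, edgeR). Since none of the 3 passed between M+NSPCC1 and Model, these calls do not show that the extract changed them. Calls were also lost here, since 1 Spink gene rose against 2 in Model. Among the members of neither class 4 rose, against 5 in Model.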

How the data were processed

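TRIzol was used to take total RNA from skin, which was sequenced as messenger RNA libraries, per the labels. The deposited tables of the authors give 1 row per transcript, with estimated counts in one table and FPKM (scaled by length and depth) in the other. Per the submitters' processing notes, HISAT2 2.2.1, RSEM 1.3.1, DESeq2 1.34.0 and build mm10 were used; no role is given for them, nor a rule for which transcripts entered the tables. Groups came from the sample titles.

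The 98 deposited rows of the 76 members (10720 rows of 7902 genes in all) were summed by gene ID and rounded. The members' summed counts were whole in every library for 23 members (tolerance 0.011 per row), and those of the others were fractional estimates. Totals over these rows are not the full depth of a library; whole-library depth, estimated by dividing a transcript's count by its FPKM, differed by factors of 0.967 to 1.03.

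All 12 libraries entered 1 fit per gene in edgeR 4.0.16 (R 4.3.3), with TMM factors, the default filter by expression, the quasi-likelihood test and Benjamini-Hochberg adjustment over 7638 genes, at a threshold of 0.05. Of the members 73 were tested; Adamts15, Spink8 and Tmprss6 were not. Positive log2 fold changes mean higher in the group named first. Summed FPKM carry no test. Bounds for a group without counts use 3 counts over the group and cover counting error only.

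The members, gene lists, markers and tests were chosen with earlier results of these data known, so none is independent evidence. Named were, per family, up to 4 members per direction with the smallest p in Model against Ctrl, the 6 with the smallest p in M+NSPCC1 against Model, up to 4 per direction that passed only in M+NSPCC1 against Ctrl, members without counts in a group, and a fixed set of 30 skin genes, of which 11 were in the tables; 63 members resulted, of which 1 is counted but not reported here.

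The alternatives tried were DESeq2's size factors, whole-library depth, DESeq2 1.42.0, 2 other filters, the replicate number as a block, limma 3.58.1 on log2(FPKM + 1) and log2(FPKM + 0.1) with a mean FPKM of at least 0.5, limma without that filter, only the 8 libraries compared, transcripts in place of genes, and each library left out. Counts were also simulated with 1 mean per gene, the average of the 2 groups compared, so other group differences were absent. Of 100 genes changed by 2-fold, 64, 66 and 63 were recovered for Model against Ctrl, M+NSPCC1 against Model and M+NSPCC1 against Ctrl. Of 100 changed by 1.5-fold, 23, 30 and 27 were recovered, with 8, 3 and 5 false calls among 7553, 7448 and 7559 genes. Promoters were read from RefSeq on GRCm38.p6.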

Additional observations from a re-analysis of the deposited data

Results flagged for a closer look

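A library stood apart from the other 3 of its group in 15 of 181 groups of 4 members' values examined (8.29%), where chance gives about 1 in 20, or 9.1. Of the 15, 6 fell on Model 03. In Model 03, Mmp11 had 205.0 CPM (14.4 to 20.7 in the other Model libraries), Spink12 24.3 (0.556 to 3.03), Wfdc18 12.1 (6.15 to 6.77), Adamtsl3 6.35 (1.297 to 1.42), Prss8 93.7 (78.2 to 79.0) and Cstf2 76.2 (107 to 113). In the other Model libraries, Adamts18 had 55.0 CPM in Model 04 (28.8 to 32.2 in the other 3) and Klk15 3.69 in Model 01 (6.95 to 7.36).

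Among Ctrl libraries, Adamts20 had 0.537 CPM in Ctrl 03 (15.1 to 17.7 in the other 3), Wfdc18 4.29 in Ctrl 03 (0 to 0.552) and Cst3 1153 in Ctrl 04 (1285 to 1309). Among M+NSPCC1 libraries, Adam22 had 1.85 CPM in M+NSPCC1 02 and Adamts15 20.7 in M+NSPCC1 03, each with no count in the other 3. Ctso had 49.7 CPM in M+NSPCC1 02 (34.3 to 35.2) and Prss53 136 in M+NSPCC1 01 (215 to 228).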

How the results depend on the processing

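Counts of members that rose and fell stayed within 1.5 times of those reported under each alternative, except the inhibitors that rose in M+NSPCC1 against Ctrl. Those numbered 8, and 5 to 10 with 1 library left out, the 5 being without M+NSPCC1 01. With 1 library left out, Model against Ctrl gave 13 to 14 proteases higher and 17 to 21 lower, and 7 to 9 inhibitors higher and 13 lower. No member passed between M+NSPCC1 and Model under any alternative; the lowest adjusted p of a member was 0.145, without Model 03 (edgeR, Benjamini-Hochberg). Of the alternatives for single genes, 1494 kept their direction and side of the threshold, 20 lost the call, 8 gained it and 2 reversed. Both reversals were Mmp11 without Model 03, -0.55 for Model over Ctrl and 0.17 for M+NSPCC1 over Model; with other libraries left out these ran up to 1.63 and down to -1.97. For Adam22 without M+NSPCC1 02, the only library of its group with a count, -3.93 over Ctrl became -9.20 and -3.03 over Model became -8.29.

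The log2 difference of the summed FPKM between Model and Ctrl was -0.23 for proteases, -1.22 for inhibitors and 0.99 for their ratio, and the ratio gave 1.19 without Ctsd and Cst3. Between M+NSPCC1 and Ctrl the values were -0.27, -1.13 and 0.86. With CPM in place of FPKM they were -0.42, -1.45 and 1.04, and without the most abundant member of each class the inhibitors gave -1.31 and the ratio 1.05. None of these comparisons with Ctrl changed direction. Between M+NSPCC1 and Model, proteases gave -0.05 (0.07 without Model 03) and inhibitors 0.09 (-0.06 without Model 02), all within the spread between replicates, and the ratio -0.14 (-0.25 to -0.06 with 1 library left out).

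Groups share replicate numbers, but the numbers do not pair the libraries: correlations of same-numbered libraries' deviations from their group means ran from -0.162 to 0.119. With the replicate number as a block, 13 proteases rose and 20 fell in Model against Ctrl, 8 inhibitors rose and 13 fell, and 9 inhibitors rose in M+NSPCC1 against Ctrl. In counts simulated for Model against Ctrl (7553 genes), the test recovered 23 of 100 genes altered 1.5-fold. Few genes differed in that simulation, whereas 90.5% passed in the data, so it does not give the power of this comparison. For M+NSPCC1 against Model, where no gene passed, 30 of 100 were recovered, so small changes can be missed there.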
